A study of Mus musculus with 6 samples.

Results

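Transcripts of 10 scavenger receptors were measured in CD31-positive cells of the mouse liver, out of 35275 gene identifiers counted. The receptors are the stabilins Stab1 and Stab2, the hyaluronan receptor Lyve1, the mannose receptor Mrc1, the class A receptors Msr1, Marco and Colec12, the haemoglobin receptor Cd163, the class F receptor Scarf1, and the large endocytic receptor Lrp1. They were taken from a list of symbols, which was chosen with earlier results of these data known. Each symbol matched 1 identifier. All 10 passed the filter on low counts. For the comparison of cell types, Stab2, Lyve1, Scarf1 and Colec12 were set as endothelial receptors, Msr1, Marco and Cd163 as macrophage receptors, and Stab1, Mrc1 and Lrp1 as receptors of both or of many cell types.

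The cells came from livers of mice that were 1 year old and carried p16-Cre together with the Rosa26-mTmG reporter. Sorted fractions were compared in a pair, and both carry the same alleles: p16/EGFP-positive cells, with 3 libraries, and p16/EGFP-negative cells, with 3 libraries. In this model Cre follows the p16 promoter, and the reporter turns a cell green once Cre has acted in it or in its ancestors. GFP thus marks a history of promoter use and not p16 at the time of the sort. Cells were enriched on CD31 beads before sorting. CD31 is an adhesion molecule of endothelium, and is also found on platelets and on many leukocytes. The growth protocol also describes a culture step in endothelial medium, and whether it preceded these libraries is not stated in the labels. No animal, pool or batch is named. The p-values therefore cover only the library-to-library spread, which may be technical.

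Scavenger receptors bind altered or waste macromolecules and carry them into endosomes and lysosomes. In the liver this clearance is shared by the fenestrated endothelium of the sinusoids and by Kupffer cells, the macrophages that sit in the sinusoids. Sinusoidal endothelium is known for stabilin-2, LYVE1 and the mannose receptor, and Kupffer cells for the class A receptors and CD163.

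The libraries held 16766556 to 17849620 counts in the GFP-positive group and 18067411 to 22627555 counts in the GFP-negative group. Cdkn2a, the gene that encodes p16, had 15, 27 and 7 counts in the GFP-positive libraries and 0 counts in each GFP-negative library. Cdkn2a was too low to pass the filter, and counts per gene do not separate its transcripts. Pecam1, which encodes CD31, had 6894, 7065 and 9384 counts in the GFP-positive libraries and 5939, 7019 and 7633 in the GFP-negative ones. Levels below are CPM, read counts scaled to library size after TMM normalisation. Each change is the log2 fold change of GFP-positive over GFP-negative libraries with its standard error (SE), and p-values come from the quasi-likelihood test of edgeR, adjusted by Benjamini-Hochberg over 12122 genes. A gene was called at an adjusted p under 0.05. Scaled in this way, Pecam1 had 412 to 520 CPM in GFP-positive and 307 to 387 CPM in GFP-negative libraries, with no overlap. Its log2 fold change was 0.40 ± 0.15 and did not pass (edgeR adjusted p = 0.123).

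Of the 10 receptors, 8 rose in GFP-positive libraries, 0 fell and 2 did not pass, and at an unadjusted p under 0.05 or by DESeq2 0 fell as well. Over all genes tested 7.65% were called higher and 10.1% lower, or 17.8% in either direction. The median log2 fold change of the 10 receptors was 1.79, and that of all genes tested was −0.09. The receptors did not move by 1 common amount. Marco and Cd163 rose about as much as each other and far more than the stabilins. The 10 receptors together took 0.301%, 0.300% and 0.383% of all counts in GFP-positive libraries 1 to 3, against 0.0761%, 0.0881% and 0.0905% in GFP-negative libraries 1 to 3. In 9 of 10 receptors every GFP-positive library lay above every GFP-negative library, which 18.5% of all genes tested also showed. The reverse order held in 23.9%, and in 42.4% the groups were apart either way. In these bulk libraries, more cells of a type and more RNA per cell cannot be told apart.

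**Figure D1:**
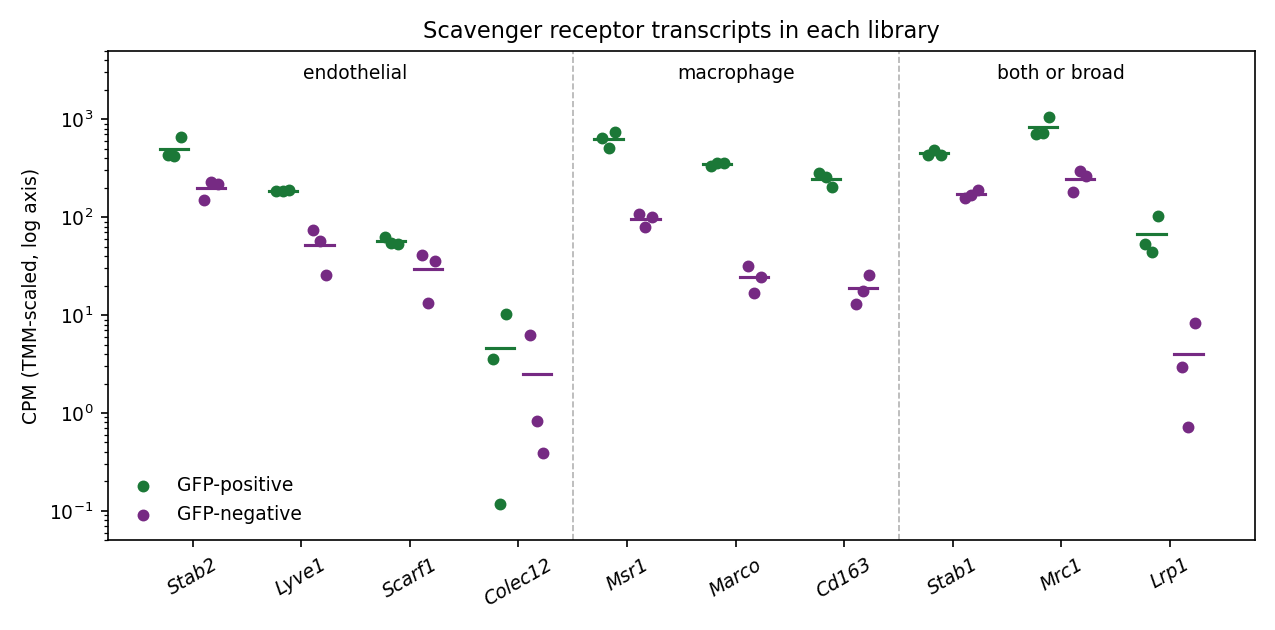
CPM of each receptor in each library, on a log axis, with GFP-positive libraries left of GFP-negative ones; points are libraries and bars are group means (n = 3 each). The groups are apart for 9 of 10 receptors and overlap for Colec12.

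The stabilins are very large receptors with EGF-like and fasciclin domains, and both take up oxidised lipoproteins and other modified ligands. Stab1 (ENSMUSG00000042286), which endothelium and alternatively activated macrophages both make, had 428, 482 and 431 CPM in GFP-positive libraries, against 155, 169 and 188 CPM in GFP-negative ones. The lowest GFP-positive library was well above the highest GFP-negative one. Its log2 fold change was 1.39 ± 0.14 (SE; edgeR adjusted p = 0.00103). Stab2 (ENSMUSG00000035459), the main hyaluronan clearance receptor of sinusoidal endothelium, had 426, 422 and 656 CPM in GFP-positive libraries and 148, 229 and 218 CPM in GFP-negative ones. GFP-positive library 3 stood apart from the other 2 of its group, and the groups did not overlap. Its log2 fold change was 1.34 ± 0.25 (adjusted p = 0.0135), and it was called in each fit that left out 1 library. The stabilins thus had nearly the same fold change, with library values that spread less for Stab1 (coefficient of variation 6.87% and 9.69%) than for Stab2 (26.7% and 22.1%) in the GFP-positive and GFP-negative groups. Reads were not stated to be counted by strand. Exons of Nt5dc2 overlap those of Stab1, and exons of Gm16268 those of Stab2, both on the other strand. Nt5dc2 held at most 379 counts in any library and Gm16268 at most 13, against at least 2865 for either stabilin.

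Lyve1 (ENSMUSG00000030787) encodes a hyaluronan receptor of lymphatic vessels that sinusoidal endothelium also carries. It had 183, 186 and 189 CPM in GFP-positive libraries, against 73.1, 56.9 and 25.5 CPM in GFP-negative ones. The GFP-positive libraries were almost alike and the GFP-negative libraries spread widely. The log2 fold change was 1.84 ± 0.38 (edgeR adjusted p = 0.0188), and the call was lost without GFP-negative library 2 (adjusted p = 0.0702). Lymphatic markers differed among themselves in the same libraries. Mmrn1, a secreted protein of lymphatic endothelium and platelets and the most abundant of these markers, had 45.0, 37.9 and 72.9 CPM in GFP-positive libraries, against 12.7, 27.6 and 18.0 CPM in GFP-negative ones. The groups did not overlap, and its log2 fold change of 1.42 ± 0.45 did not pass with edgeR (adjusted p = 0.0735) but was called by DESeq2 (0.0219). Reln, the next most abundant, had −1.19 ± 1.23 with overlap. Pdpn, a lymphatic surface protein, was at 0 counts in every library. Prox1, the transcription factor that sets lymphatic identity, had 0, 46 and 0 counts in GFP-positive libraries and 179, 91 and 0 in GFP-negative ones. The 5 lymphatic markers summed to between 41.1 and 83.3 CPM in GFP-positive libraries and between 21.8 and 48.8 CPM in GFP-negative ones, and of the 3 measured 0 passed edgeR's test, 1 had an unadjusted p under 0.05 and DESeq2 called 1 higher. Their part in the Lyve1 difference was not tested.

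Mrc1 (ENSMUSG00000026712), the mannose receptor, binds glycoproteins and collagen fragments and is made by sinusoidal endothelium and by macrophages. It had 714, 718 and 1041 CPM in GFP-positive libraries and 181, 296 and 265 CPM in GFP-negative ones. As with Stab2, GFP-positive library 3 was highest and GFP-negative library 1 lowest. It rose by 1.74 ± 0.24 on the log2 scale (edgeR adjusted p = 0.00425). This estimate lay above those of the stabilins and below those of the macrophage receptors, but differences between receptors were not tested.

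All 3 macrophage receptors rose. Marco (ENSMUSG00000026390), a class A receptor with a collagen-like stalk that binds bacteria and particles, had 333, 357 and 353 CPM in GFP-positive libraries, against 31.5, 16.9 and 24.4 CPM in GFP-negative ones. The lowest GFP-positive library was far above the highest GFP-negative one. It rose by 3.84 ± 0.26, or 14.3-fold (edgeR adjusted p = 0.000200). Cd163 (ENSMUSG00000008845), which clears haemoglobin bound to haptoglobin, had 281, 255 and 204 CPM in GFP-positive libraries and 13.03, 17.5 and 25.8 CPM in GFP-negative ones. It rose by 3.71 ± 0.31 (adjusted p = 0.000500), within 1 SE of Marco. Msr1 (ENSMUSG00000025044), the class A receptor for modified lipoproteins, had 645, 503 and 745 CPM in GFP-positive libraries, against 108, 78.5 and 100 CPM in GFP-negative ones. Its log2 fold change of 2.72 ± 0.21 (adjusted p = 0.000321) was the smallest of the 3. Each of the 3 kept its call whichever library was left out.

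The promoters of 6 of the 10 receptors were in the RefSeq table (GRCm38.p6), and 3 are shown because the comparison turns on them: Marco as a macrophage receptor, Stab2 as an endothelial one set against it, and Mrc1 as one of both cell types. Each is the 250 bases before the start, on the minus strand for Marco (chr1:120505025-120505274) and Stab2 (chr10:87007943-87008192) and on the plus strand for Mrc1 (chr2:14229164-14229413). Capitals mark the letters GAGGAA, the core of sites for the macrophage factor PU.1, or their reverse complement TTCCTC.
Marco: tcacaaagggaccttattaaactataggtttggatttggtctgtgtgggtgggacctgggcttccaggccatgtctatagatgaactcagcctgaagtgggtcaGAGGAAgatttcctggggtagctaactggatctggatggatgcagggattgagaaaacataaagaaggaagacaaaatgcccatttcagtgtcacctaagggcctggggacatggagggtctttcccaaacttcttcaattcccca
Stab2: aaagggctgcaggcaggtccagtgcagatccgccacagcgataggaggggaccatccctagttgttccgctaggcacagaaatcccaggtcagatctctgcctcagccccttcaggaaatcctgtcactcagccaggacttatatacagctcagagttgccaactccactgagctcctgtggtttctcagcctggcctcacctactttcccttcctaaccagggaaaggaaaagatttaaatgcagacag
Mrc1: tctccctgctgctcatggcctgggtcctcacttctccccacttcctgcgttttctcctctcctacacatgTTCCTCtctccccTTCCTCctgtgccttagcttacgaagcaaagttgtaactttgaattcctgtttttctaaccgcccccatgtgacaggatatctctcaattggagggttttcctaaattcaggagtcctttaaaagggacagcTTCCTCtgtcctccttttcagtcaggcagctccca
Searched on both strands, GAGGAA was found once for Marco, 146 bases before the start, 3 times for Mrc1 and once for Stab1, and not for Stab2, Cd163 or Lrp1. It is in 23.3% of the 32851 promoter windows of this length in the table, so 3 of 6 is a description. AGATAA, the letters of GATA factor sites, was found in none of the 6 and is in 9.99% of all windows. A match is not evidence of binding.

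Scarf1 and Colec12 did not pass. Scarf1 (ENSMUSG00000038188), a class F receptor first found on endothelium, had 62.5, 54.5 and 52.6 CPM in GFP-positive libraries and 40.7, 13.2 and 35.6 CPM in GFP-negative ones. The groups did not overlap, but GFP-negative library 2 was far below the other 2, and the log2 fold change was 0.92 ± 0.45 (edgeR adjusted p = 0.230). It was 0.56 without that library. Colec12 (ENSMUSG00000036103), a membrane collectin of vessels, was hardly present, with 57, 2 and 186 counts in GFP-positive libraries and 122, 15 and 9 counts in GFP-negative ones. The groups overlapped, and the value was 0.89 ± 1.74 (adjusted p = 0.799). The sign turned to −0.46 without GFP-positive library 3, and the value was 2.92 without GFP-negative library 1.

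Lrp1 (ENSMUSG00000040249), which binds many ligands, belongs to the LDL receptor family and is made by hepatocytes, macrophages and stellate cells, showed the largest fold change of the 10 and a wide error. It had 53.4, 44.1 and 102 CPM in GFP-positive libraries, against 2.95, 0.717 and 8.27 CPM in GFP-negative ones. GFP-negative library 2 held only 13 counts and library 3 held 190. The log2 fold change was 4.06 ± 0.91 (edgeR adjusted p = 0.0246). The call was lost without GFP-positive library 1 (adjusted p = 0.0528) or 3 (0.0665), or without GFP-negative library 1 (0.0959), and without GFP-negative library 3 the value was 5.17. Hepatocyte markers were lower in the same libraries, in 4 of 6 measured (2 without GFP-positive library 1 or GFP-negative library 2, and 1 without GFP-negative library 3). In sum they reached 1011 to 1371 CPM in GFP-positive libraries, against 2030 to 2289 CPM in GFP-negative ones. Of 5 stellate cell and fibroblast markers measured, 1 was higher, or 2 without GFP-positive library 2 or GFP-negative library 3. The whole list summed to 249 to 299 CPM in GFP-positive libraries, against 34.7 to 98.4 CPM in GFP-negative ones. Of 10 macrophage and monocyte markers measured 8 were higher, or 6 to 8 when 1 library was left out. With all libraries 1 was lower and 1 did not pass, and the median log2 fold change of the list was 3.61. Over all genes tested 7.65% were called higher and 10.1% lower. The part of these cell types in the Lrp1 difference was not tested.

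Set per kilobase of exon, levels can be ordered across the 10 genes. These used the union of exons in GENCODE M21, since the annotation behind the counts is not stated. In GFP-positive libraries Marco led, at 181 ± 6.81 CPM per kilobase (mean ± SD, n = 3), followed by Mrc1 at 129 ± 29.4 and Msr1 at 99.4 ± 19.1. Lyve1 (63.7 ± 1.04), Stab2 (57.2 ± 15.3), Cd163 (45.2 ± 7.21) and Stab1 (43.4 ± 2.98 CPM per kilobase) came next. Each of these neighbours overlapped in library values with the next, as did Mrc1 and Msr1. The lowest were Scarf1, Lrp1 and Colec12, at 19.6 ± 1.82, 3.76 ± 1.76 and 0.533 ± 0.594 CPM per kilobase, with no overlap between them. In GFP-negative libraries Mrc1 led, at 38.8 ± 9.27 CPM per kilobase, and did not overlap with the next. Stab2 at 22.7 ± 5.01, Lyve1 at 17.8 ± 8.30 and Stab1 at 16.6 ± 1.61 followed, ahead of Msr1 at 15.1 ± 2.41 and Marco at 12.6 ± 3.79. Scarf1 at 10.3 ± 5.06, Cd163 at 3.44 ± 1.184, Colec12 at 0.288 ± 0.378 and Lrp1 at 0.225 ± 0.219 CPM per kilobase came last. From Stab2 down to Cd163 each neighbour overlapped with the next, as did Colec12 and Lrp1. Marco thus ranked 1 of 10 in GFP-positive and 6 of 10 in GFP-negative libraries, while Stab2 ranked 5 and 2.

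The next comparison sets macrophage against endothelial receptors within each library, where the scaling of the library cancels. Of all counts on the 10 receptors, Msr1, Marco and Cd163 took 40.2%, 36.9% and 34.4% in GFP-positive libraries 1 to 3, against 20.1%, 12.9% and 16.9% in GFP-negative libraries 1 to 3. Stab2, Lyve1, Scarf1 and Colec12 took 21.6%, 21.9% and 24.0% in GFP-positive libraries and 35.3%, 34.1% and 31.4% in GFP-negative ones. Neither share overlapped between the groups. The remaining share, of Stab1, Mrc1 and Lrp1, was 38.2% to 41.6% in GFP-positive and 44.6% to 53.0% in GFP-negative libraries. These shares are descriptions, and receptors of greater length weigh more in them. The 3 shares of a library make up a whole, so a lower share is not a lower level. The endothelial receptors in sum had 662 to 908 CPM in GFP-positive and 268 to 300 CPM in GFP-negative libraries.

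**Figure D2:**
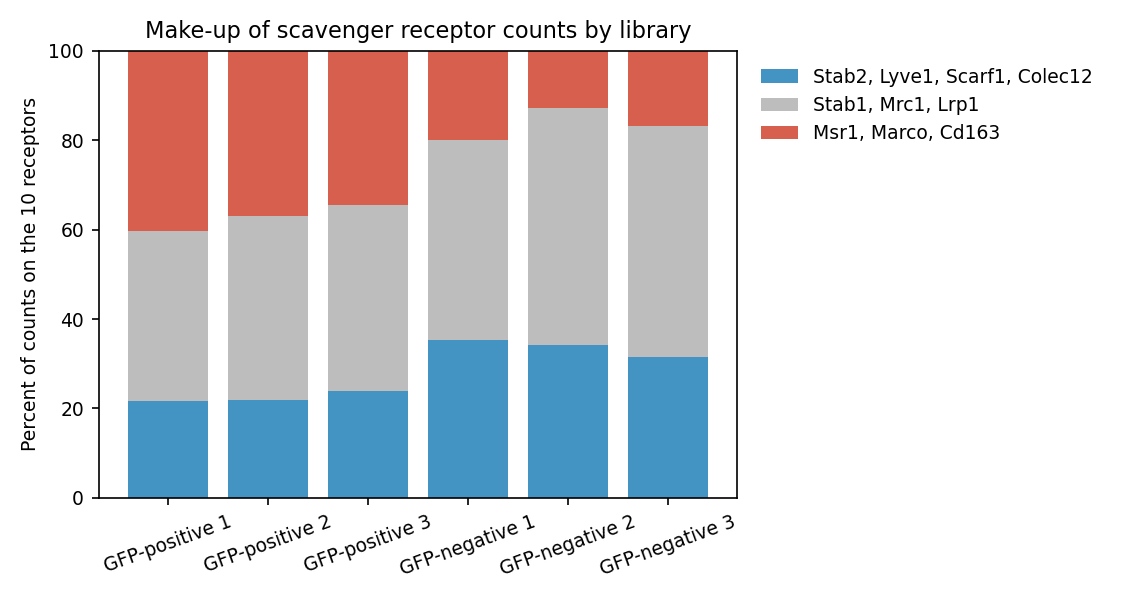
Percent of the counts on the 10 receptors that fell on endothelial receptors (blue), receptors of both or of many cell types (grey) and macrophage receptors (red), in each library. The red share is 34.4% to 40.2% in GFP-positive and 12.9% to 20.1% in GFP-negative libraries.

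Pair by pair, each of the 12 ratios of a macrophage to an endothelial receptor had a higher mean in GFP-positive libraries, and 8 of 12 did not overlap between the groups. The 12 pairs reuse the same 3 macrophage and 4 endothelial receptors, so they are not separate results. No share over other gene pairs was computed, and among single genes 42.4% were apart either way. Marco over Stab2 had log2 ratios of −0.36, −0.24 and −0.89 in GFP-positive libraries, against −2.23, −3.75 and −3.16 in GFP-negative ones. The ratio was 5.84-fold higher, a difference of 2.55 ± 0.49 on the log2 scale (SE, n = 3 each; exact permutation p = 0.1, two-sided, adjusted over 12 pairs 0.15). This p is the smallest that 3 libraries against 3 allow, so no pair could pass. Marco over Scarf1 was 7.00-fold higher and Cd163 over Stab2 5.36-fold higher, also without overlap. Msr1 over Stab2 was 2.61-fold higher, with log2 ratios of 0.60, 0.25 and 0.18 in GFP-positive and −0.46, −1.54 and −1.12 in GFP-negative libraries. Msr1 over Lyve1 overlapped between the groups, at 1.68-fold (exact permutation p = 0.3). The 3 pairs with Colec12 also overlapped. Cd163 over Lyve1 did not overlap, but only by a narrow margin, with 0.11 in GFP-positive library 3 and 0.01 in GFP-negative library 3.

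**Figure D3:**
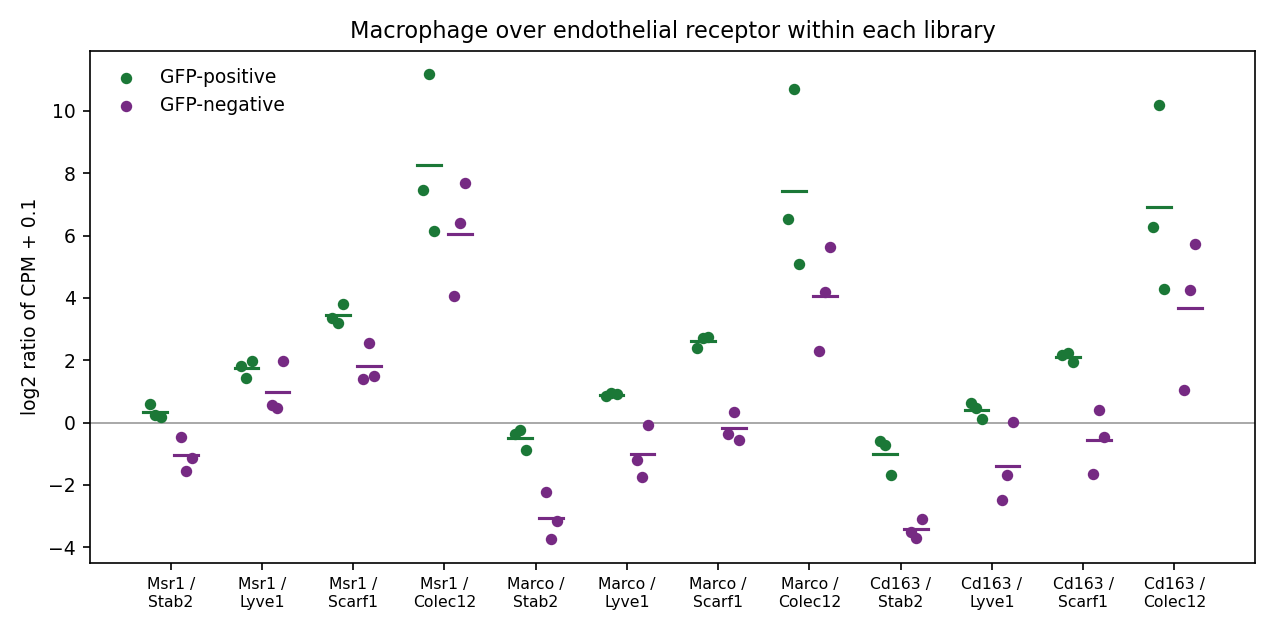
Log2 ratio of each macrophage receptor to each endothelial receptor within a library (CPM + 0.1), with GFP-positive libraries left of GFP-negative ones; points are libraries and bars are means (n = 3 each). All 12 means are higher in GFP-positive libraries, and the groups overlap in Msr1 over Lyve1 and in the 3 pairs with Colec12.

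Markers of the cells that make these receptors moved in the same libraries. Their counts stand beside 7.65% called higher and 10.1% called lower over all genes tested. Of 8 sinusoidal endothelium markers 6 rose and 2 did not pass, with a median log2 fold change of 1.04. They summed to 12199 to 13756 CPM in GFP-positive libraries, against 5290 to 6278 CPM in GFP-negative ones. Clec4g, a lectin of these cells, rose by 1.32 ± 0.12 (SE; edgeR adjusted p = 0.000691), and Ehd3, an endocytic traffic protein, by 0.98 ± 0.11 (0.00163). Of 11 pan-endothelial markers 8 rose and 3 did not pass (median 1.17; 4776 to 5696 CPM in sum in GFP-positive, 2304 to 2590 CPM in GFP-negative libraries), and 5 rose without GFP-negative library 2 or 3. Kdr, a VEGF receptor, rose by 1.31 ± 0.19 (0.00498) and Ptprb, an endothelial phosphatase, by 1.43 ± 0.20 (0.00491). Of 6 Kupffer cell markers 5 rose and 1 did not pass (median 4.22). They summed to 10529 to 11459 CPM in GFP-positive libraries, against 547 to 735 CPM in GFP-negative ones. The marker not past the test was Spic, a transcription factor of red pulp and liver macrophages, with 601 to 920 counts in GFP-positive and 5 to 125 in GFP-negative libraries. Clec4f, a lectin of Kupffer cells, rose by 3.999 ± 0.19 (5.21e-05), and Cd5l, a secreted macrophage protein, by 4.08 ± 0.16 (2.54e-05). Of 10 macrophage and monocyte markers 8 rose, 1 fell and 1 did not pass (median 3.61; 14754 to 15344 CPM in sum in GFP-positive and 970 to 1271 CPM in GFP-negative libraries). The one that fell was Ly6c2, a monocyte surface protein, with 0, 3 and 3 counts in GFP-positive and 375, 141 and 131 in GFP-negative libraries (adjusted p = 0.0338), and it was not called without any 1 library other than GFP-positive library 1. Lyz2, lysozyme, and C1qb, a chain of complement C1q, rose by 3.60 ± 0.12 (1.53e-05) and 3.87 ± 0.16 (3.26e-05). The part of these shifts in the receptor differences was not tested.

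Transcripts of other cells differed as well, again beside 7.65% called higher and 10.1% called lower over all genes tested. All 7 B cell markers measured fell, with a median log2 fold change of −7.04, and they summed to 72.2 to 154 CPM in GFP-positive libraries, against 11899 to 12969 CPM in GFP-negative ones. Of 6 T and NK cell markers 1 fell, or 3 without GFP-positive library 1 and 2 without GFP-positive library 3. Of these 6, 4 had lower levels at an unadjusted p under 0.05 and DESeq2 called 4 lower, among them Cd3e, a chain of the CD3 complex (−5.78, DESeq2 adjusted p = 0.00021). The list's median log2 fold change was −4.63. Of 5 platelet markers 3 rose and 2 did not pass. Of 4 erythroid markers edgeR called 0, but 4 had an unadjusted p under 0.05, DESeq2 called 3 lower, and edgeR called 3 lower without GFP-positive library 1. Of 4 dendritic cell and 2 neutrophil markers 0 passed with edgeR or DESeq2 and 0 had an unadjusted p under 0.05, but 1 neutrophil marker rose without GFP-negative library 3. Epcam, the 1 cholangiocyte marker measured, fell (edgeR adjusted p = 0.0244), and this held only without GFP-positive library 3 (0.0494) among the fits that left out 1 library.

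**Figure D4:**
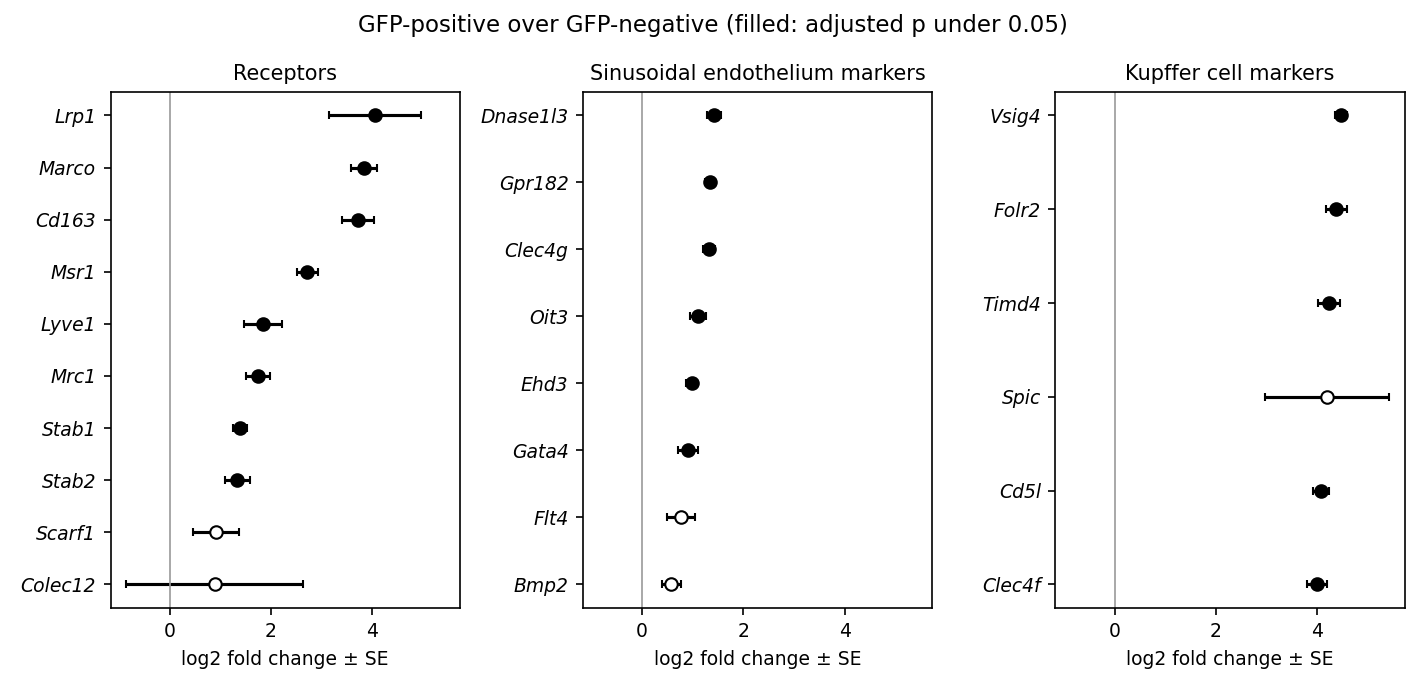
Log2 fold change of GFP-positive over GFP-negative libraries with its SE (n = 3 each), for the 10 receptors, the 8 sinusoidal endothelium markers and the 6 Kupffer cell markers; filled points passed an adjusted p of 0.05. Stab1 and Stab2 lie in the range of the sinusoidal markers, and Marco and Cd163 lie just below the Kupffer cell markers.

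Relative to the mean of the sinusoidal markers in the same library, 3 of the 4 endothelial receptors overlapped between the groups. Stab2 stood at −0.84 ± 0.33 on the log2 scale in GFP-positive and −1.12 ± 0.17 in GFP-negative libraries (SD over 3 libraries). The difference was 0.27 ± 0.21 (SE), and the libraries overlapped. Scarf1 differed by 0.01 ± 0.59 and Colec12 by −0.56 ± 2.05, also with overlap. The value of Stab2 was 0.08 without GFP-positive library 3. Leaving out 1 library gave −0.55 to 0.42 for Scarf1 and −1.73 to 1.03 for Colec12, so the sign of both depended on the libraries used. Lyve1 was higher by 0.91 ± 0.53, Stab1 by 0.33 ± 0.09 and Mrc1 by 0.69 ± 0.20, each without overlap (exact permutation p = 0.1, the smallest possible). For Lyve1 the margin was narrow, with −2.26 in GFP-positive library 1 and −2.32 in GFP-negative library 1, and the difference was 0.42 without GFP-negative library 3. With the median of the markers in place of their mean, the value for Stab1 was 0.14.

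Relative to the mean of the Kupffer cell markers, the macrophage receptors were lower in GFP-positive libraries. Msr1 stood at −0.35 ± 0.28 on the log2 scale in GFP-positive and 1.34 ± 0.07 in GFP-negative libraries, a difference of −1.69 ± 0.17 (SE, n = 3 each) with no overlap. Marco differed by −0.53 ± 0.13, without overlap, and Cd163 by −0.65 ± 0.38, with overlap. Each of these 3 stayed below 0 in every comparison that left out 1 library. The mean of the Kupffer cell markers includes Spic, which had only 125, 5 and 13 counts in GFP-negative libraries 1 to 3. The part of Spic in these differences, and in the lack of overlap for Marco, was not tested. Lrp1 differed by 0.09 ± 0.97 from these markers and by 3.44 ± 1.05 from the sinusoidal ones. The first of these ranged from −0.66 to 0.90 when 1 library was left out, with the lowest value without GFP-negative library 2. The mean of the Kupffer cell markers itself was higher by 4.41 in GFP-positive libraries and that of the sinusoidal markers by 1.06. Of the 20 values, 10 for each marker list, the smallest exact permutation p was 0.1, or 0.143 adjusted over the 20.

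**Figure D5:**
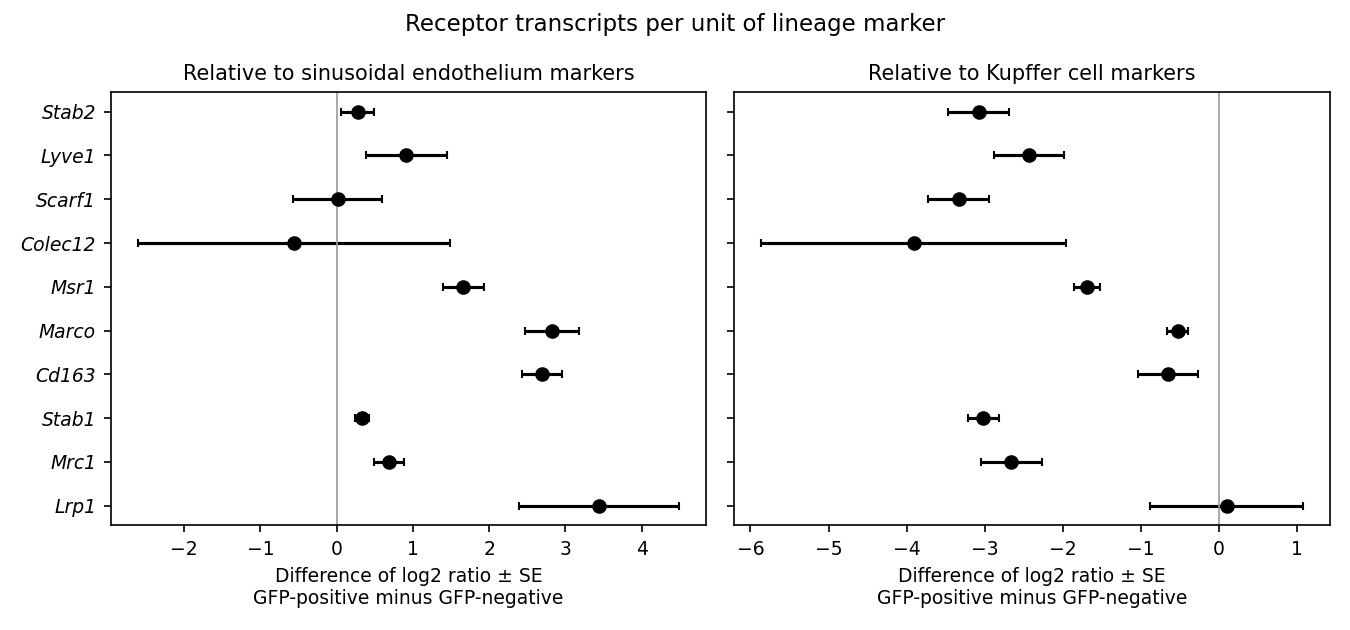
Difference between GFP-positive and GFP-negative libraries in each receptor's log2 CPM less the mean log2 CPM of the sinusoidal endothelium markers (left) or Kupffer cell markers (right), with its SE (n = 3 each). On the left Stab2 is at 0.27 and Scarf1 at 0.01, whose sign changed with the library left out. On the right Marco is at −0.53, Cd163 at −0.65 and Lrp1 at 0.09, and the sign of Lrp1 also changed. The Kupffer cell markers include Spic, which had few counts in GFP-negative libraries.

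GFP-positive library 3 was the highest of its group for Stab2, Mrc1, Msr1, Lrp1, Colec12 and, by a small margin, Lyve1. Its log2 CPM exceeded the mean of libraries 1 and 2 by 0.63 for Stab2, 0.54 for Mrc1, 0.39 for Msr1 and 1.07 for Lrp1, but by 0.04 for Marco and Lyve1. It was 3.53 for Colec12, which rested on few counts, and below 0 for Stab1 (−0.08), Scarf1 (−0.15) and Cd163 (−0.39). In that library long transcripts were in general higher. Over the 4708 genes with a GENCODE M21 exon length whose log2 CPM averaged 5 or more, the median of the same difference was −0.32 in the 942 genes with the shortest exons in sum (median 1715.5 bases) and 0.27 in the 942 with the longest (median 9271.5 bases). Exon length was 17717 bases for Lrp1, 10288 for Stab1, 8757 for Stab2, 8725 for Colec12, 6371 for Mrc1 and 6344 for Msr1. It was 5461 for Cd163, 2919 for Lyve1, 2887 for Scarf1 and 1925 for Marco. Between the groups, the median log2 fold change was 0.37 over the shortest and −0.13 over the longest of these genes. The part of length in the receptor values was not tested.

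The wider family was taken from a list of scavenger receptor classes and the mannose receptor family. Without the 10 receptors above, it held 19 genes with an identifier, of which 11 were too low to test and 3 of these had no count in any library. Of the 8 measured, 6 rose, 0 fell and 2 did not pass, with a median log2 fold change of 1.73. Over all genes tested, 7.65% were called higher and 10.1% lower. Cd36, a class B receptor for fatty acids and oxidised lipoproteins, reached 740 ± 94.7 CPM in the GFP-positive fraction, against 158 ± 36.5 CPM in the GFP-negative fraction (SD, n = 3). Its log2 fold change was 2.23 ± 0.21 (adjusted p = 0.000863, edgeR). Scarb1, the HDL receptor, rose by 1.61 ± 0.23 (0.00491). Scarb2, a lysosomal membrane protein, rose by 1.30 ± 0.26 (0.0180), a call lost without any 1 GFP-negative library (0.0590 to 0.0775). Cd68, a macrophage endosome protein, rose by 3.25 ± 0.25 (0.000308), and Clec7a, the beta-glucan receptor dectin-1, by 3.66 ± 0.54 (0.00549). Cxcl16, a membrane chemokine that also binds oxidised lipoprotein, rose by 1.44 ± 0.15 (0.00138). The other two, Cd44, a hyaluronan receptor, and Pla2r1, a mannose receptor relative, had 1.09 ± 0.31 (0.0512) and 1.84 ± 1.31 (0.412). Cd44 was called by DESeq2 with all libraries (0.00751), and by edgeR without GFP-negative library 3 (0.0457).

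By class, 2 of 3 measured class A receptors rose, 3 of 3 of class B and 3 of 4 of classes D to G. In classes H to L 4 of 5 rose, and in the mannose receptor family 1 of 2. These counts, and those of the hyaluronan genes next, stand beside 7.65% called higher over all genes tested. Of 8 measured genes that bind, make or cut hyaluronan 2 rose, Stab2 and Lyve1 (1 without GFP-negative library 2), and the hyaluronan synthases Has1, Has2 and Has3 had 0 counts in every library. Hyal2, a hyaluronidase at the cell surface, had a value of 0.70 ± 0.25 on the log2 scale (adjusted p = 0.111, edgeR).

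Of 12 measured genes of the LDL receptor family and its partners, 4 rose, 2 fell and 6 did not pass. The shares over all genes tested were 7.65% higher and 10.1% lower. Beside Lrp1, the risers were Mesd, a chaperone of this family, at 1.56 ± 0.31 (SE; edgeR adjusted p = 0.0171), Lrpap1, a chaperone that keeps LRP1 free of ligand in the endoplasmic reticulum, at 1.007 ± 0.22 (0.0238), and Dab2, a clathrin adaptor, at 1.23 ± 0.14 (0.00158). Mesd lost its call without GFP-positive library 2 (0.0508) or GFP-negative library 1 (0.0543) or 2 (0.0754). The count of risers was 2, 2, 1 and 2 without GFP-positive library 1 or 2 or GFP-negative library 1 or 2. Sorl1, a sorting receptor that lymphocytes also make, fell by 9.65 ± 0.54 on the log2 scale (0.000102), with 11, 2 and 4 counts in GFP-positive and 5132, 5520 and 5740 in GFP-negative libraries. The B cell markers fell too, and their part in this value was not tested. Lrp10 had a log2 fold change of −1.27 ± 0.24 (0.0147), a call lost without GFP-negative library 1 (0.0543) or 3 (0.0601).

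Among 10 measured ligands and partners of the stabilins, 4 rose, 1 fell and 5 did not pass. All genes tested gave 7.65% higher and 10.1% lower. In this list 2 rose without any 1 of GFP-positive libraries 1 and 2 or GFP-negative libraries 2 and 3. Sparc, a matrix protein that stabilin-1 clears, reached 2747 ± 233 CPM in the GFP-positive fraction, against 998 ± 89.6 CPM in the GFP-negative fraction (SD, n = 3). Its log2 fold change was 1.46 ± 0.11 (adjusted p = 0.000305, edgeR). Itgb5, an integrin that acts with stabilin-2 in uptake of dying cells, rose by 2.77 ± 0.34 (0.00262). Tgfbi, a matrix protein with fasciclin domains that stabilins clear, rose by 2.77 ± 0.69 (0.0344), but its call was lost without any 1 library other than GFP-negative library 1 (0.0662 to 0.111). Gga2, a sorting adaptor of the trans-Golgi, fell by 2.31 ± 0.18 (0.000300), and its relatives Gga1 and Gga3 had −0.04 ± 0.37 and −0.09 ± 0.69.

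Of 7 measured ligands of LRP1, 2 rose and 5 did not pass. For this list and those that follow, 7.65% of all genes tested were called higher and 10.1% lower. Lpl, lipoprotein lipase, rose by 3.998 ± 0.39 (SE; edgeR adjusted p = 0.000971) and Apoe, an apolipoprotein of remnant particles, by 1.74 ± 0.07 (2.54e-05). Of 8 genes that bind haemoglobin or haem in plasma or handle haem and iron within cells, 5 rose and 3 did not pass. Those not past were Hp and Hpx, plasma proteins that bind haemoglobin and haem, and Fth1, a ferritin chain. Hmox1, the enzyme that opens haem, reached 532 ± 71.5 CPM in the GFP-positive fraction, against 88.2 ± 35.6 CPM in the GFP-negative fraction, with a log2 fold change of 2.59 ± 0.31 (0.00244). Slc40a1, the iron exporter, rose by 2.89 ± 0.11 (1.76e-05), Blvra and Blvrb, reductases of biliverdin, by 1.99 ± 0.31 (0.00709) and 1.47 ± 0.18 (0.00256). Of 15 measured genes of the general endocytic coat 3 rose and 12 did not pass (median 0.53), beside 7.65% called higher over all genes, while DESeq2 called 5 higher and 1 lower and edgeR called 1 without GFP-negative library 1 or 2. Its risers were Picalm (1.502 ± 0.32), Ap2s1 (1.00 ± 0.19) and Clta (0.86 ± 0.12). Picalm lost its call without any 1 of GFP-positive libraries 1 and 2 and GFP-negative libraries 1 and 2 (0.0589 to 0.0886), and Ap2s1 without any 1 GFP-negative library (0.0539 to 0.0673). Of 7 genes for sheddases and their regulators, which release receptors from the surface, 0 passed edgeR's test. An unadjusted p under 0.05 was seen in 2, DESeq2 called 1 higher, and edgeR called 1 higher without GFP-positive library 2.

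The genes whose log2 CPM profile over the 6 libraries, centred on its mean, lay nearest to that of Stab2 were Jcad, Eaf1, Enpep, Sept2 and Ddx50, with root mean square differences of 0.128 to 0.142 among the 4712 other genes whose log2 CPM averaged 5 or more, with or without an exon length. Their log2 fold changes were 1.08 to 1.34. Nearest to Marco were Cxcl13, Ccl6, Il18bp, Slc11a1 and Fcgr3, at 0.171 to 0.204, with log2 fold changes of 3.69 to 4.03. Eaf1 did not pass the test (adjusted p = 0.0674). Ddx50 lost its call without any 1 library other than GFP-positive library 2, and Enpep without GFP-positive library 1 or 3 or GFP-negative library 1 or 3. Sept2 lost its call without GFP-negative library 2 (0.0611). These distances are descriptions over 6 libraries.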

How the data were processed

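Poly-A RNA of 6 sorted liver cell samples was sequenced, per the labels' protocols, with PCR, and no molecular identifiers are described. The authors deposited raw read counts per Ensembl gene for all 6 libraries in 1 table. The submitters' processing notes list edgeR, RSEM and TopHat, and give versions for HTSeq (0.6.1), DESeq (1.18.0), TopHat2 (2.0.12) and Bowtie2 (2.2.3), with no role for any. For genome build, annotation and strand setting, no statement was found in the labels or the file. Symbols came from a supplied table that matched 34490 of 35275 identifiers.

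The deposited counts entered edgeR 4.0.16 (R 4.3.3): filter on low expression with minimum count 10, TMM, robust dispersions, and the quasi-likelihood test of GFP-positive against GFP-negative libraries, adjusted over all 12122 genes tested. The SE is the log2 fold change divided by the square root of the F statistic. The steps were checked on simulated data. Totals of 16766556 to 22627555 counts limit the precision of low genes such as Colec12, and the common biological coefficient of variation was 0.816. Ratios used log2 of CPM plus 0.1, with two-sided exact permutation tests (scipy 1.17.1). Alternatives were DESeq2 1.42.0, library totals, no filter, 266 immunoglobulin and lymphocyte genes left out, a pseudocount of 1, and each library left out in turn.

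The receptors and lists were chosen with earlier results of these data known. Named genes were the 10 receptors, Cdkn2a and Pecam1, up to 4 called members of each pathway list with the largest change and any called against its majority, the 2 most abundant markers of each cell type, and the 5 nearest profiles of Stab2 and Marco. Of the genes this rule names, some markers are given only within their lists. Genes outside it, such as Cd44, Pla2r1, Hyal2, Lrpap1, Dab2, Gga1, Gga3, Pdpn, Prox1, Spic, Ly6c2, Hp, Hpx, Fth1 and the Has genes, were chosen after their values were seen. Protein sequences were not used here.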

Additional observations from a re-analysis of the deposited data

How the results depend on the processing

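Of the 8 receptors called higher, 8 were called by DESeq2, with library totals (2122 genes called in all), without the filter on low counts, and with immunoglobulin and lymphocyte genes left out, and 7 or 8 when 1 library was left out. Over all genes, leaving out 1 library gave 994 to 1810 called genes, against 2157 with all libraries. The lowest were 994, 1027 and 1045 without GFP-negative library 1, 2 or 3. The cause was not tested beyond the smaller number of libraries. DESeq2 called 3225, and edgeR without the filter 1751 of 18839 genes. Over all listed genes 62 to 74 were called without 1 library, against 79. The log2 fold change of Colec12 turned to −0.46 without GFP-positive library 3 and ranged up to 2.92 without 1 library. Among markers that did not pass, S100a8 had 0.09 with all libraries and −7.64 without GFP-positive library 2 (range to 0.68), and Siglech had −0.62 with all and 6.35 without GFP-negative library 1 (range from −1.89). The cause of these turns was not tested. Scaling by library totals moved the median of all genes by −0.03, and dropping the filter by −0.18. The median difference of the 12 receptor ratios was 2.32 and stayed between 1.76 and 2.74 when 1 library was left out. Of the 20 values set against markers (10 receptors, each against both marker lists), the groups did not overlap in 14. This count was 14 to 16 without 1 library, and 12 with the median of the markers, a setting chosen after seeing the data. No share over other genes set against these markers was computed, and among single genes 42.4% were apart either way. The marker means were themselves higher in GFP-positive libraries, by 4.41 (Kupffer cell) and 1.06 (sinusoidal). A gene with another change could therefore be apart through the markers, and the count is a description. No paired analysis was possible because nothing in the labels ties a GFP-positive library to a GFP-negative one. Depth limits what can be said of Colec12, which held 2 counts in 1 library.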
